A study of Mus musculus with 3 samples.

Results

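The genes described here are 9 factors that make or repair the DNA double-strand breaks of meiotic recombination: Spo11, Mei1, Prdm9, Dmc1, Tex15, Msh4, Msh5, Hfm1 and Tex11. They were taken by name, and every array probe annotated to 1 of these symbols was used, with no filter on level. This gave 12 probes of 41174 array probes, for 9 of 19532 genes. Msh5 had 3 probes, Spo11 had 2 and each of the other genes had 1.

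RNA came from whole gonads of male mouse embryos at E14.5 and was hybridised to Agilent arrays in 1 colour. The first group was labelled null for both Nanos2 and Stra8 (Nanos2-/-/Stra8-/-), the second null for Nanos2 and heterozygous for Stra8 (Nanos2-/-/Stra8+/-), and the third heterozygous for both (Nanos2+/-/Stra8+/-), so no group was wild type and each carried at least 1 mutant allele of both genes. They are called the labelled double-null, the Nanos2-null and the control column. Each was deposited as 1 column whose title names replicates 1 and 2, so that no difference has a replicate check, an error or a test. The comparisons were Nanos2 loss (Nanos2-null over control), combined loss (labelled double-null over control) and Stra8 loss (labelled double-null over Nanos2-null). Nanos2 loss and combined loss share the control column, and Stra8 loss shares a column with each of them, so their values are given side by side only.

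Meiotic recombination begins when SPO11 cuts DNA at sites that PRDM9 marks in the mouse. The strand-exchange protein DMC1 pairs the resected ends with the homologous chromosome, and the MutS homologues MSH4 and MSH5, with HFM1 and TEX11, stabilise the joint molecules that can become crossovers. In the mouse, ovarian germ cells enter this programme before birth after retinoic acid induces Stra8, whereas germ cells of the fetal testis normally do not, and NANOS2 is a fetal male germ cell protein that keeps Stra8 low. The question addressed to these columns was whether the recombination genes differed when Nanos2 was absent, with and without Stra8.

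The targeted genes had the following values. The Nanos2 probe lay at 0.397 in the labelled double-null column, 0.364 in the Nanos2-null column and 87.2 in the control column. The Stra8 probe lay at 1.34 in the labelled double-null, 1.13 in the Nanos2-null and 0.108 in the control column, and its position on the gene is unknown here, so whether it reads the deleted part, and so checks the label, cannot be said. The label of that column is therefore taken as given. The deposited values are ratios. For 25678 probes (62.4%) the middle of the 3 values was within 0.05 of 1, and so was that of 10 of the 12 member probes, so a value compares columns for 1 probe and not the brightness of different probes. The median log2 difference of all probes was 0.05 in Nanos2 loss, 0.19 in combined loss and 0.16 in Stra8 loss. Differences are given as deposited, so those of the labelled double-null column include this shift. In whole-gonad RNA, fewer germ cells and less RNA per germ cell cannot be told apart.

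Most recombination factors differed little between the genotypes, and they did not go one way. In Nanos2 loss 8 of the 12 probes lay above 0 and 4 below, where 60.7% of all probes lay above 0, with a median of 0.03 against 0.05 for all probes. In combined loss 6 lay above 0 and 6 below, where 66.3% of all probes lay above 0, with a median of -0.09 against 0.19. In Stra8 loss 5 lay above 0 and 7 below, where 69.0% of all probes lay above 0, with a median of -0.08 against 0.16. A single probe, of Msh5, was at least 2-fold higher in Nanos2 loss, where 2.51% of all probes were, and none was at least 2-fold lower, against 3.09%. The same Msh5 probe was the 1 at least 2-fold higher in combined loss, against 4.59% of all probes, and 0 of 12 were lower, against 4.39%. In Stra8 loss 0 of 12 were higher, against 2.44%, and 0 were lower, against 2.78%. A count of 1 is the smallest above 0 that 12 probes allow, and it rests on a gene whose other probes did not pass 2-fold.

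At 1.5-fold, Tex15 joined the count. Nanos2 loss had the Msh5 probe higher, where 6.31% of all probes were, and the Tex15 probe lower, against 6.81%. Combined loss had 2 Msh5 probes higher, against 12.8%, and the Tex15 probe lower, against 9.97%. Stra8 loss had 0 higher, against 7.23%, and 0 lower, against 7.17%.

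**Figure D1:**
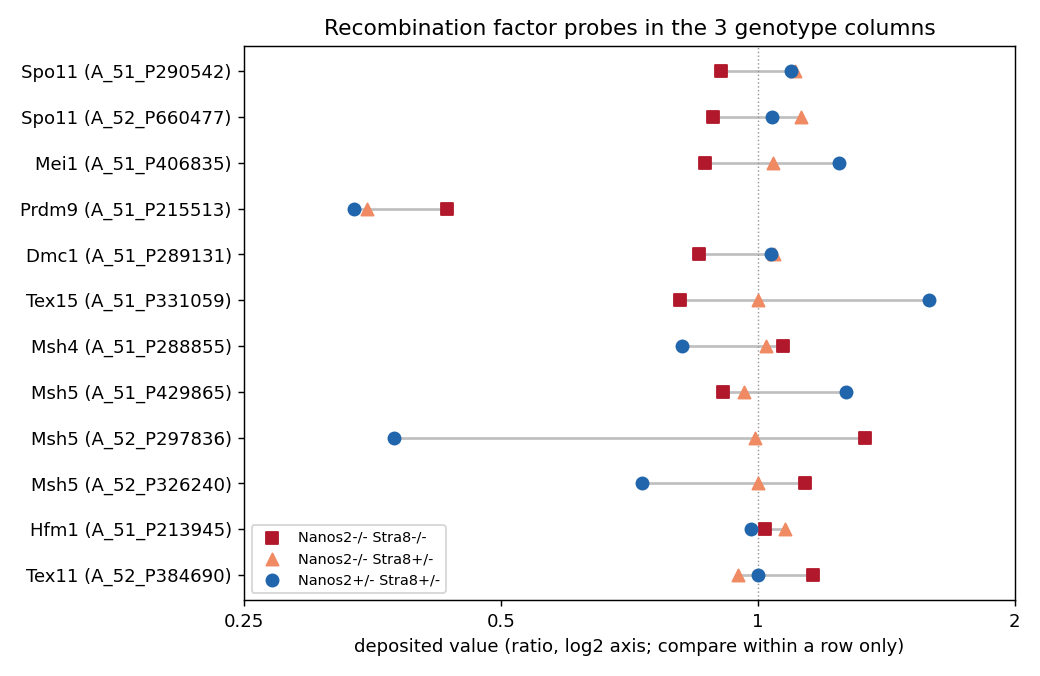
Deposited value (ratio, log2 axis) of each of the 12 probes in the labelled double-null (squares), Nanos2-null (triangles) and control (circles) columns, to be compared within a row only. The Msh5 probe A_52_P297836 spans 0.375 to 1.34, the Tex15 probe 0.811 to 1.58, and the Prdm9 probe stays below 0.7 in every column.

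Break formation was represented by Spo11 and Mei1. Spo11 encodes the topoisomerase-like protein that makes the breaks. Its probe A_51_P290542 lay at 0.906 in the labelled double-null, 1.10 in the Nanos2-null and 1.09 in the control column. Its other probe, A_52_P660477, lay at 0.886 in the labelled double-null, 1.12 in the Nanos2-null and 1.04 in the control column. By both probes the labelled double-null column was the lowest, and the Nanos2-null and control columns were close. In Nanos2 loss the log2 differences were 0.01 and 0.11, of which the first became -0.04 when column medians were centred. In combined loss they were -0.27 and -0.23, and in Stra8 loss -0.28 and -0.34. Relative to the median of all probes, the Stra8 loss differences were -0.45 and -0.50, with 14.7% and 12.8% of all probes lower still. The 2 probes differed from each other by 0.10, 0.04 and 0.06 in the 3 comparisons, while 8511 genes with at least 2 probes had a median range of 0.20, 0.40 and 0.32. That set is not matched to Spo11, because it includes genes with more probes. The 2077 genes with 3 probes had wider median ranges, of 0.28, 0.61 and 0.48.

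Mei1, which is needed for break formation in mouse meiosis, lay at 0.868 in the labelled double-null, 1.04 in the Nanos2-null and 1.24 in the control column. The control column was thus the highest and the labelled double-null column the lowest. Its log2 difference was -0.26 in Nanos2 loss, -0.52 in combined loss and -0.26 in Stra8 loss, at most 1.43-fold. In combined loss Mei1 lay 0.71 below the median of all probes, and 11.4% of all probes lay lower.

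Prdm9 encodes the histone methyltransferase whose zinc fingers choose the break sites. Its probe lay at 0.432 in the labelled double-null, 0.349 in the Nanos2-null and 0.336 in the control column. It was the 1 member probe below 0.7 in all columns, as were 7552 array probes (18.3%). The array's negative control had deposited values of 0.454 in the labelled double-null, 0.354 in the Nanos2-null and 0.352 in the control column. Each probe's divisor is unknown, so these do not say which of them was brighter. The log2 differences of Prdm9 were 0.05 in Nanos2 loss, 0.36 in combined loss and 0.31 in Stra8 loss. Those of the negative control were 0.01, 0.36 and 0.36, and the medians of the 7552 low probes were 0.06, 0.37 and 0.30. Prdm9 therefore differed between columns by about as much as the low probes as a group, and no difference beyond theirs was detectable.

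**Figure D2:**
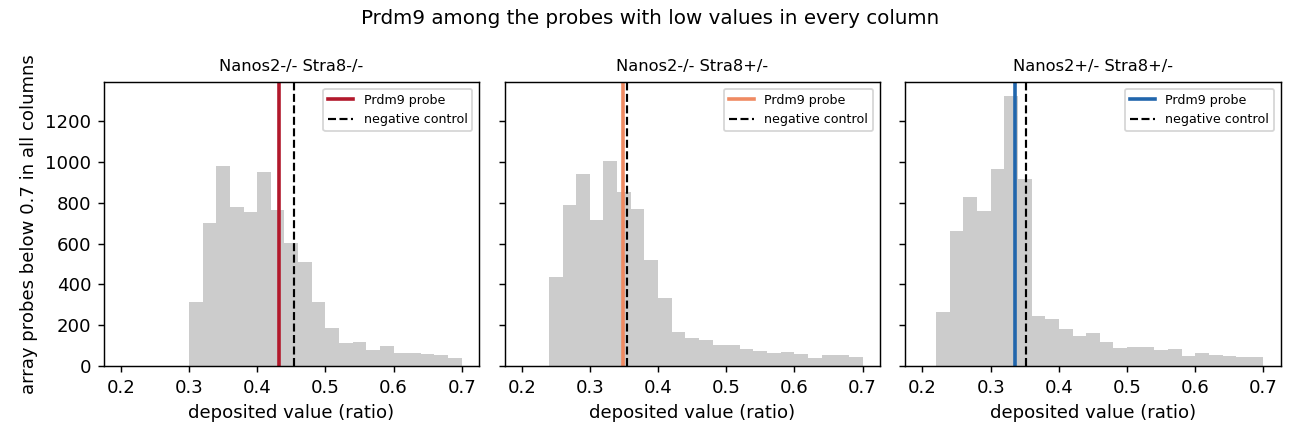
Number of array probes by deposited value (ratio), for the 7552 probes below 0.7 in all columns, with the Prdm9 probe (solid line) and the negative control (dashed line) in the labelled double-null, Nanos2-null and control columns. Both lines shift between columns with the low probes, Prdm9 lying at 0.432, 0.349 and 0.336.

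Strand exchange was represented by Dmc1 and Tex15. Dmc1, the meiosis-specific RecA homologue, lay at 0.853 in the labelled double-null, 1.05 in the Nanos2-null and 1.04 in the control column. Its log2 difference was 0.01 in Nanos2 loss, or -0.04 with column medians centred, -0.28 in combined loss and -0.29 in Stra8 loss. As with Spo11, the labelled double-null column was the lowest and the other two columns were close. Relative to the median of all probes the Stra8 loss difference of Dmc1 was -0.45, with 14.4% of all probes lower.

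Tex15, which mouse spermatocytes need to repair meiotic breaks and which also acts in transposon silencing in fetal male germ cells, had the lowest differences of the member probes in Nanos2 loss and combined loss. It lay at 0.811 in the labelled double-null, 1.0 in the Nanos2-null and 1.58 in the control column. Both columns without Nanos2 were thus below the control column, and the labelled double-null column was the lowest. The log2 difference was -0.66 in Nanos2 loss, where 5.78% of all probes lay lower. In combined loss it was -0.97, or 1.95-fold lower, with 4.72% of all probes lower still. It passed 2-fold in combined loss when column medians were centred, at -1.05, and lay 1.15 below the median of all probes. In Stra8 loss it was -0.30. Tex15 had 1 probe, so there is no other probe to compare with it.

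The crossover-stabilising factors gave the widest range. Msh4 lay at 1.07 in the labelled double-null, 1.02 in the Nanos2-null and 0.815 in the control column. Its log2 difference was 0.33 in Nanos2 loss, where 86.6% of all probes lay lower, 0.40 in combined loss and 0.07 in Stra8 loss, the last becoming -0.07 under quantile normalization. Both columns without Nanos2 were thus above the control column, by at most 1.31-fold. Relative to the median of all probes the difference was 0.28 in Nanos2 loss and 0.21 in combined loss.

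Msh5, whose product forms a heterodimer with MSH4, had 3 probes that disagreed. Probe A_52_P297836 lay at 1.34 in the labelled double-null, 0.992 in the Nanos2-null and 0.375 in the control column. Probe A_52_P326240 lay at 1.14 in the labelled double-null, 1.0 in the Nanos2-null and 0.731 in the control column. Probe A_51_P429865 lay at 0.911 in the labelled double-null, 0.962 in the Nanos2-null and 1.27 in the control column. By the first and second of these probes the control column was the lowest, and by the third it was the highest.

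In Nanos2 loss the Msh5 differences were 1.40, 0.45 and -0.40 on the log2 scale, and in combined loss 1.83, 0.64 and -0.48. Relative to the median of all probes, those of combined loss were 1.65, 0.45 and -0.67. The first probe was 2.65-fold higher in Nanos2 loss and 3.56-fold higher in combined loss, with 98.8% and 99.1% of all probes lower. Whether its control value lay above background is not known, and once every value under its column's median was set to that median, its differences were 0.08 and 0.51. In Stra8 loss the 3 probes gave 0.43, 0.19 and -0.08. Their mean was 0.49 in Nanos2 loss and 0.66 in combined loss, below 2-fold in both. The probes spanned 1.80 in Nanos2 loss, a wider range than in 97.2% of the 2077 genes with 3 probes, whose median range was 0.28. In combined loss the span of 2.31 was wider than in 97.9% of them, and in Stra8 loss the span of 0.51 was wider than in 52.0%. Probes of both signs were common, at 51.2% of these genes in Nanos2 loss and 58.1% in combined loss. Which part of Msh5 or which transcript each probe reads is unknown here, so no direction is given for the gene.

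**Figure D3:**
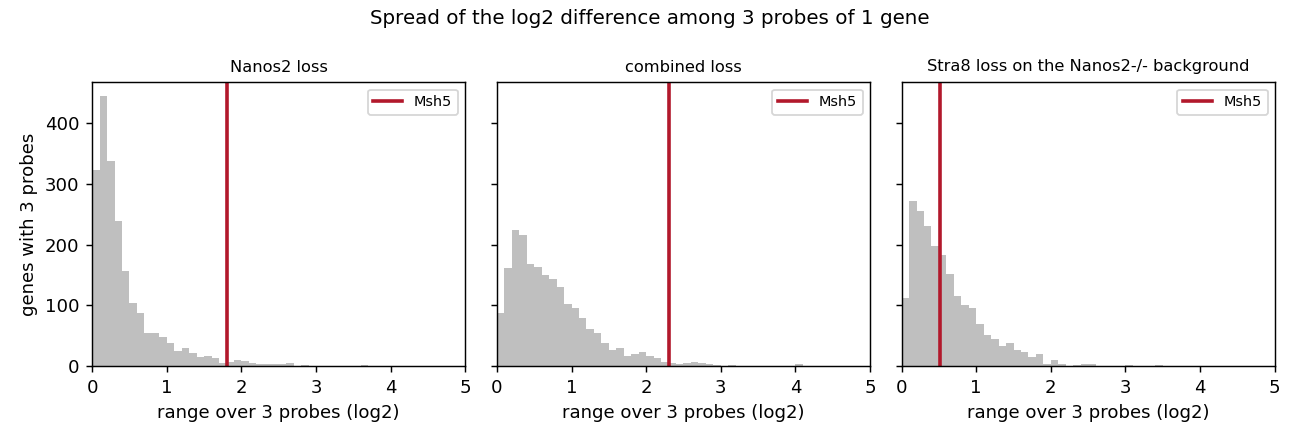
Number of genes with 3 probes, by the range of the log2 difference over the 3 probes, in Nanos2 loss, combined loss and Stra8 loss. The line marks Msh5, at 1.80, 2.31 and 0.51.

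Hfm1, a DNA helicase of crossover formation, was the flattest member, with 1.02 in the labelled double-null, 1.08 in the Nanos2-null and 0.981 in the control column. Its log2 difference was 0.13 in Nanos2 loss, 0.05 in combined loss, where it became -0.03 with column medians centred or under quantile normalization, and -0.08 in Stra8 loss. Tex11, an X-linked factor that promotes crossovers in the mouse, lay at 1.16 in the labelled double-null, 0.946 in the Nanos2-null and 1.0 in the control column. Its log2 difference was -0.08 in Nanos2 loss, 0.21 in combined loss and 0.29 in Stra8 loss, and the combined loss value lay 0.03 from the median of all probes.

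**Figure D4:**
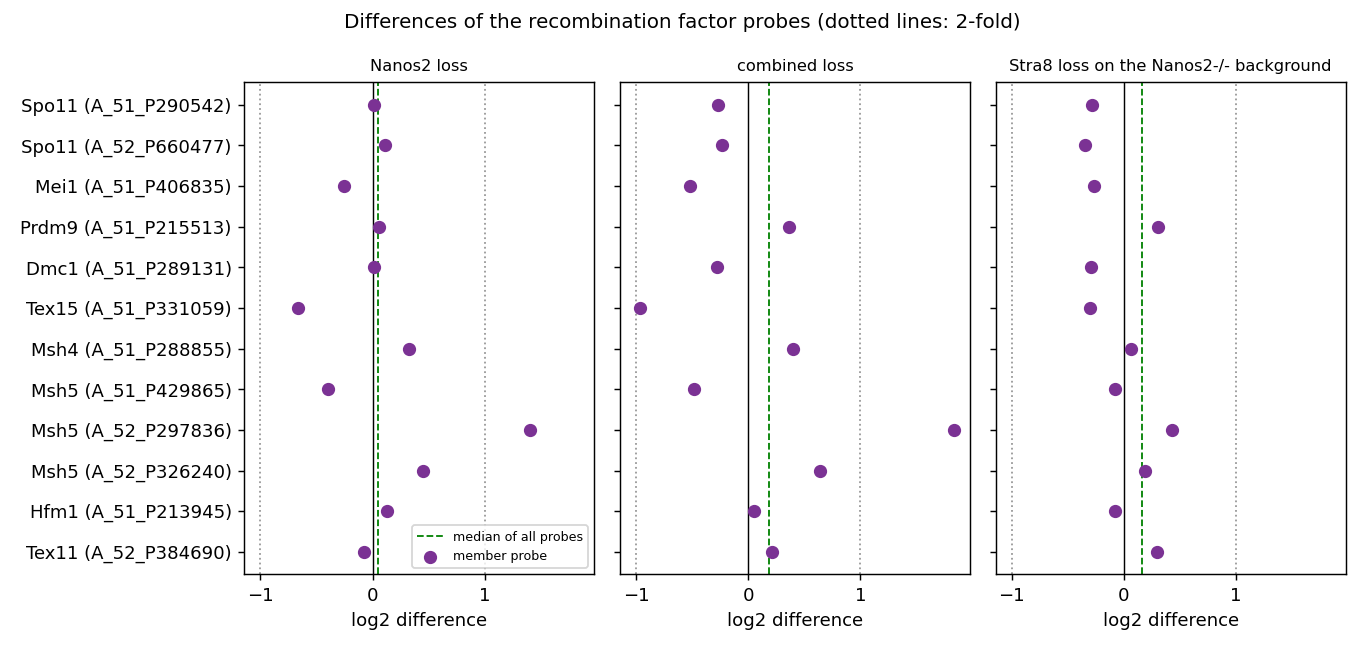
Log2 difference of each of the 12 probes in Nanos2 loss, combined loss and Stra8 loss, with dotted lines at 2-fold and a dashed line at the median of all probes (0.05, 0.19 and 0.16). Only the Msh5 probe A_52_P297836 lies beyond a dotted line, in Nanos2 loss and combined loss. Values near 0, such as 0.01 for Dmc1 in Nanos2 loss, change sign with the scaling.

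The promoters of Msh5, Msh4 and Dmc1 are shown because a Msh5 probe had the widest difference, Msh4 encodes the partner of MSH5, and Dmc1 acts at the earlier step of strand exchange. A RefSeq table of GRCm38.p6 held 7 promoters for 6 of the 9 members, each with 250 bases before and 50 after a gene start. The motifs searched on both strands were GGCGGGAA, the E2F-type site, GGGCGG, the GC box, and CACGTG, the E-box, where the first and second can overlap. The 250 bases before the start follow, 5′ to 3′ on the gene's strand, with matches in capitals. All 3 genes lie on the minus strand, Msh5 at chr17:35046623-35046872, Msh4 at chr3:153904892-153905141 and Dmc1 at chr15:79605110-79605359.
Msh5: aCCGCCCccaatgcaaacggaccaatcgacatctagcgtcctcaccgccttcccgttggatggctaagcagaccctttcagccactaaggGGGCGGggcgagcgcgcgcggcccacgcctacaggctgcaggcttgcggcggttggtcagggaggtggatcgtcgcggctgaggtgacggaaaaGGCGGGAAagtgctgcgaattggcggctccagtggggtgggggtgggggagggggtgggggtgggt
Msh4: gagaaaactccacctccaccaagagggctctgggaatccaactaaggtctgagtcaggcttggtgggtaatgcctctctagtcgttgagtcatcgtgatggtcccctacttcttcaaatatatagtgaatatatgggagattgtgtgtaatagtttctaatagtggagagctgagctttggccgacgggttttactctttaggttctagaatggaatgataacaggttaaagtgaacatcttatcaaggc
Dmc1: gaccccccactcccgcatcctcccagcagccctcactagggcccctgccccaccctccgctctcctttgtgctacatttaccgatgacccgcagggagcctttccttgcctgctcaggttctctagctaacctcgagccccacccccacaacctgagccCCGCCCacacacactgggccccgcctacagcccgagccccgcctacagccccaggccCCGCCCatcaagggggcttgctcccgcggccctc

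The Msh5 promoter held the E2F-type site beginning 66 bases before the start, and GC boxes beginning 160 and 249 bases before it. Prdm9 was the other member with this E2F-type site, which 2.19% of 32851 promoters held. The Dmc1 promoter held GC boxes beginning 91 and 34 bases before the start, and 1 beginning 33 bases after it, outside the bases printed. Across the members, 4 of 7 promoters, of 4 genes, held a GC box, against 35.7% of all promoters, and 0 held the E-box, against 7.15%. The Msh4 promoter held none of these letters in this window.

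Other genes of the recombination pathway were read from 6 lists of 78 further genes, of which 65 had a probe, 115 in all. In Nanos2 loss 3 of these probes were at least 2-fold higher and 0 lower, with a median of 0.04 against 0.05 for all probes. In combined loss 6 were higher and 4 lower, with a median of 0.10 against 0.19, and in Stra8 loss 4 were higher and 1 lower, with a median of 0.07 against 0.16. These shares, 2.61% higher in Nanos2 loss and 5.22% higher and 3.48% lower in combined loss, stand beside 2.51%, 4.59% and 4.39% of all probes, and 0 of 115 were lower in Nanos2 loss, beside 3.09%. In Stra8 loss 3.48% were higher and 0.870% lower, beside 2.44% and 2.78% of all probes.

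Of the strand-exchange genes, Mcmdc2, an MCM-like protein needed for meiotic recombination in the mouse, lay at 1.08 in the labelled double-null, 1.2 in the Nanos2-null and 0.315 in the control column. It was thus 3.81-fold higher in Nanos2 loss and 3.44-fold higher in combined loss, by a single probe, and whether the control value lay above background is not known. Meiob, a single-strand DNA-binding protein of meiotic breaks, lay at 1.05 in the labelled double-null, 1.01 in the Nanos2-null and 0.638 in the control column, or 1.59-fold higher in Nanos2 loss. Hsf2bp, which brings BRCA2 to meiotic breaks, was 1.58-fold higher in Nanos2 loss but had a difference of 0.30 in combined loss. Rad51c was lower, by 1.57-fold in Nanos2 loss and 1.46-fold in combined loss. The 36 probes of the list's 22 further genes had medians of -0.04 and 0.01 in these comparisons, with 15 and 19 above 0. Of all probes, 60.7% and 66.3% lay above 0.

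Of the genes of hotspot choice, Hells, a chromatin remodeller that partners PRDM9, lay at 1.32 in the labelled double-null, 1.0 in the Nanos2-null and 0.672 in the control column. This was 1.49-fold higher in Nanos2 loss and 1.97-fold higher in combined loss. Zcwpw1, a reader of the PRDM9 histone marks, was lower by both probes, with differences of -0.63 and -0.49 in Nanos2 loss and of -0.87 and -0.52 in combined loss. Its relative Zcwpw2 had differences of -0.80 and -0.25 in Nanos2 loss, and both of its probes were at least 2-fold lower in combined loss, at -1.03 and -1.23.

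Break-formation partners showed small or uneven differences. Iho1, a binding partner of the break machinery, was 1.29-fold higher in Nanos2 loss, and Rec114 had differences of -0.35 and -0.14 by its probes. The 3 probes of Mei4 gave 0.04, 0.05 and 0.96 in Nanos2 loss and 0.36, 0.06 and 1.5 in combined loss. Among later-acting genes, Slx1b, a nuclease subunit, had differences of 1.82 and 0.30 by its 2 probes in Nanos2 loss and of 2.40 and 0.28 in combined loss. The 2 probes of Rmi2 gave 1.17 and -0.34 in combined loss and 1.05 and -0.22 in Stra8 loss. Cntd1, a cyclin-like crossover factor, had differences of 0.39 and 0.95 in Nanos2 loss and of 0.61 and 2.24 in combined loss, so both of its probes lay above 0 in both. No gene of the end-processing and damage-signalling list, of 15 with a probe, was at least 2-fold apart in Nanos2 loss or combined loss. Of all probes, 2.51% and 4.59% were at least 2-fold higher in these comparisons, and 3.09% and 4.39% lower. Exo1, a resection nuclease, had a difference of 0.56 in combined loss. In Stra8 loss 1 of the 32 probes of the end-processing and damage-signalling list was at least 2-fold higher, and 0 were lower. Of all probes, 2.44% were higher and 2.78% lower in Stra8 loss. The higher probe was of Atr, whose other probes did not pass 2-fold.

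**Figure D5:**
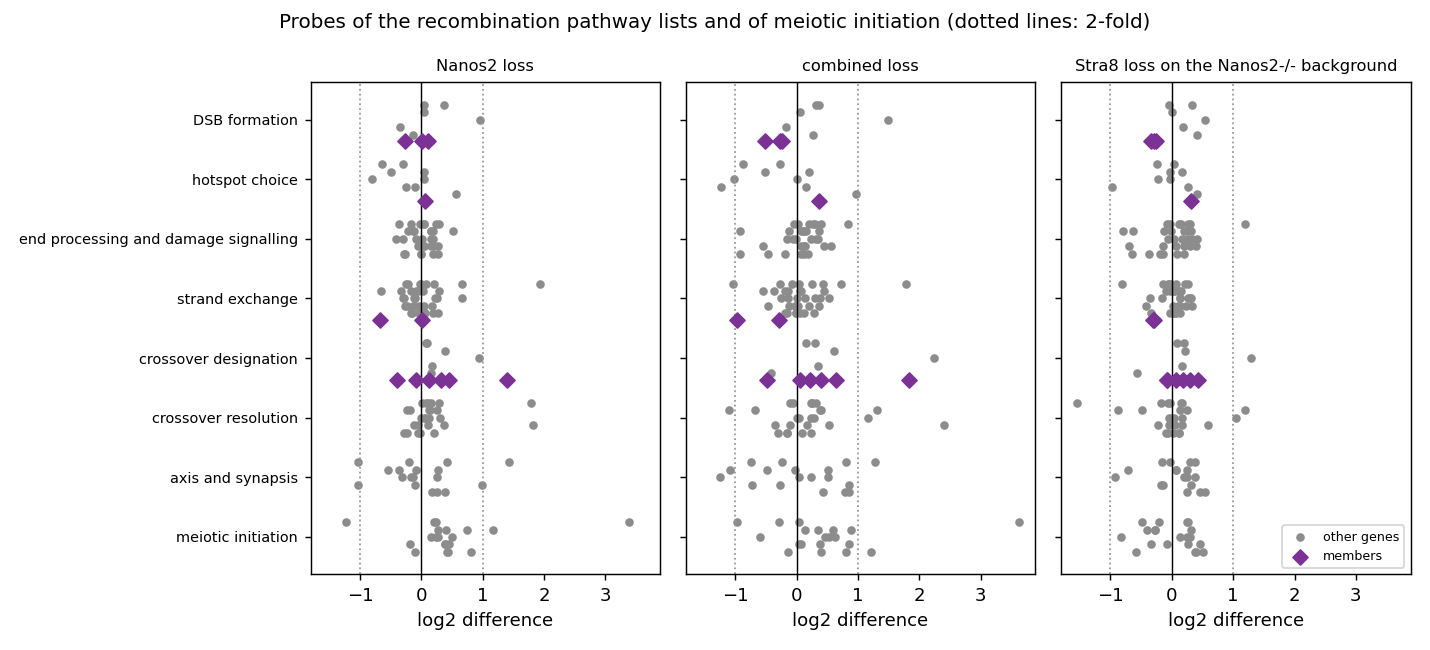
Log2 difference of each probe of 8 pathway lists in Nanos2 loss, combined loss and Stra8 loss, with other genes in grey, the 12 member probes as diamonds and dotted lines at 2-fold. Member probes lie among the other genes, and the point farthest to the right in Nanos2 loss and combined loss is Stra8, at 3.39 and 3.63.

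Structural and initiation genes of meiosis are given for comparison. The 12 measured axis and synapsis genes had a median of -0.09 over 18 probes in Nanos2 loss, with 1 probe at least 2-fold higher and 2 lower, where 2.51% and 3.09% of all probes were. Their median was 0.14 in combined loss, with 1 higher and 2 lower, beside 4.59% and 4.39%. In Stra8 loss it was 0.22, with 0 higher and 0 lower, beside 2.44% and 2.78%. For all probes the 3 medians were 0.05, 0.19 and 0.16. The 2 lower probes were of Tex12 in Nanos2 loss, at -1.03 and -1.02, and of Sycp2 in combined loss, at -1.08 and -1.24. Each gene had a further probe that did not pass, at 0.18 for Tex12 and -0.27 for Sycp2. That Tex12 probe lay below 0.7 in every column. Over the 20 probes of 11 meiotic initiation genes the median was 0.39 in Nanos2 loss and also 0.39 in combined loss, and 17 and 16 of them lay above 0. Over all probes the medians were 0.05 and 0.19, with 60.7% and 66.3% above 0. This list holds Stra8 itself. In Stra8 loss the list's median was 0.19, against 0.16 for all probes, with 11 of 20 above 0, against 69.0% of all probes. Dmrt1, a regulator of Stra8 in fetal germ cells, lay at 1.31 in the labelled double-null, 1.0 in the Nanos2-null and 0.566 in the control column, or 1.76-fold higher in Nanos2 loss and 2.32-fold higher in combined loss.

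Germ cell markers were spread on both sides of 0. Over 13 probes of 10 germ cell genes the differences ran from -0.89 to 0.82 in Nanos2 loss, with a median of 0.12, and from -0.64 to 0.68 in combined loss, with a median of 0.24. None was listed at 0. In Stra8 loss they ran from -0.55 to 0.53, with a median of 0.17. Ddx4, the germ cell RNA helicase, had -0.22 in Nanos2 loss and 0.24 in combined loss. Dazl, an RNA-binding protein of germ cells, lay above 0 by both probes, at 0.75 and 0.49 in Nanos2 loss and at 0.35 and 0.63 in combined loss, and Nanos3 had 0.82 and 0.61. Dppa3 (0.38 and 0.68), Kit (0.12 and 0.28) and both Sall4 probes (0.30 and 0.31, 0.03 and 0.06) also lay above 0 in Nanos2 loss and combined loss. Dnd1, a partner of NANOS2, lay below 0 at -0.89 and -0.64, as did Mael at -0.63 and -0.36. Tdrd1, a piRNA pathway protein, also lay below 0 by both probes, at -0.69 and -0.82 in Nanos2 loss and at -0.48 and -0.30 in combined loss, while Pou5f1 had 0.37 and -0.18. The part of germ cell content in the differences of Tex15, Msh4 and Msh5 was not tested. Sertoli cell markers had a median of 0.04 in Nanos2 loss over 14 probes of 10 genes and 0.15 in combined loss, and mesonephric markers had 0.20 and 0.38 over 10 probes of 7 genes, of which 4 and 3 were at least 2-fold higher, where 2.51% and 4.59% of all probes were. In Stra8 loss the mesonephric median was 0.18, with 0 probes higher and 1 lower, Cdh16 at -1.32, beside 2.44% and 2.78%. Erythroid markers lay above 0 by all 8 probes in Nanos2 loss and combined loss, where 60.7% and 66.3% of all probes did. Their medians were 0.36 and 0.30, against 0.05 and 0.19 for all probes. In Stra8 loss the erythroid median was -0.04, with 3 of 8 above 0, against 69.0% of all probes. Pre-granulosa markers had medians of 0.11 and 0.29 over 7 probes. Of these, 1 and 2 were at least 2-fold higher, beside 2.51% and 4.59%, and 0 were in Stra8 loss, beside 2.44%. Leydig markers had medians of -0.02 and 0.05 over 10 probes, endothelial markers 0.04 and 0.00 over 15, and macrophage markers 0.14 and 0.18 over 16. In Stra8 loss their medians were 0.05, 0.02 and 0.02. Of the macrophage probes, 1 was at least 2-fold lower in Nanos2 loss and 1 in combined loss, beside 3.09% and 4.39% of all probes. Of the Leydig probes, 1 was lower in combined loss and 1 in Stra8 loss, beside 4.39% and 2.78%.

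The probes nearest in pattern to the widest members were found by Euclidean distance over the 3 log2 values. Nearest to the Msh5 probe A_52_P297836 were probes of Eif2s3x-ps1 at 0.03, Phactr3 at 0.09 and Slc7a9 at 0.10, and 46 probes lay within 0.25. Nearest to Tex15 were Srcin1 at 0.02, Cd74 at 0.04 and Aym1 at 0.05, with 192 probes within 0.25. With 3 columns such likeness is common and says nothing of the genes' roles.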

How the data were processed

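Male gonads at E14.5 of 3 genotypes were measured, with 1 column per genotype. Per the labels' protocols, total RNA was amplified to cRNA carrying Cy3. Agilent Feature Extraction 9.5 is named in the submitters' processing notes. Judged from their range, the values the authors deposited are linear ratios. How they were normalized, scaled between arrays and merged over replicates 1 and 2 is not stated. Arrays have no read depth, so precision rests on how many were run, which is 1 column a genotype here.

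Of 41267 entries, 93 control spots were left out. The platform annotation gave 1 symbol for 32664 of 41174 probes and several for 45, which were not named. The 12 member probes' gene identifiers all matched RefSeq. Differences are log2 of the column ratio, with no pseudocount and no test, counted at 2-fold (log2 of 1) and 1.5-fold. Python 3.11.15, numpy 2.4.6 and pandas 2.3.3 were used, and the counting steps were tested on simulated data. The members, pathway lists, marker lists and rule for named genes (all members, Nanos2, Stra8, up to 4 genes with the widest differences per list and comparison, by the probe of highest mean value, and the 3 probes nearest to each of the 2 widest members) were chosen with earlier results of these data known. Zcwpw1, Zcwpw2, Mei4, Cntd1, Slx1b, Rmi2, Rec114, Tex12 and Sycp2 are given by all their probes, chosen after their values were seen. All 10 germ cell markers are given, and Cdh16, Atr and Sycp2 were named after their values were seen. An alias listed for Spo16 and one for Ankrd31 were dropped because RefSeq did not pair them. Not every gene that the rule names is reported here.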

Additional observations from a re-analysis of the deposited data

How the results depend on the processing

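Other settings were tried on the 36 differences of the 12 probes in 3 comparisons. With a pseudocount of 0.1, with values below the negative control raised to it, or with probes under the column medians left out (which removed Prdm9), each value kept its sign and its side of 2-fold. Over all 7 settings, 239 of 249 values kept their sign. The exceptions were those given beside Spo11, Dmc1, Hfm1 and Msh4, Prdm9 in Nanos2 loss under quantile normalization (-0.03), and the Msh5 probe A_51_P429865, in Stra8 loss with values raised to the column median (0.04) and in all comparisons when the probes were averaged (0.49, 0.66 and 0.18). No value of at least 2-fold changed sign. The count of probes at least 2-fold higher became 0 in Nanos2 loss and 0 in combined loss when values below the column median were raised to it, and when the probes of a gene were averaged, against 1 in each. Centring column medians gave 1 probe lower in combined loss, Tex15 at -1.05, against 0. At 1.5-fold there was 1 lower in Nanos2 loss, 2 higher in combined loss and 1 lower in combined loss. No paired analysis was possible because each genotype has a single column. Without replicate columns, no setting shows how far these differences exceed the variation between animals or arrays. The cause of the disagreement among the Msh5 probes was not tested.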
